A study of Mus musculus with 8 samples.

Results

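MiR-680 and miR-685 are 2 of the 381 assays on the TaqMan Array Rodent MicroRNA A Cards, a set of real-time PCR assays for mature microRNAs. Both were picked by name, from the assay names of the cycle threshold (Ct) table with the species prefix and the assay number removed. The choice was made with their values on these same 8 cards in view, for their dependence on time. The differences between groups given below for both assays are therefore descriptions, with standard errors and no test.

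Whole liver RNA was measured in female mice, of strain C57B6 in the labels and C57/BL6 in the methods, that were 4 weeks old when treatment began. The untreated group received no agent, and the other groups received carbon tetrachloride (CCl4), a toxin activated in hepatocytes and widely used to induce liver fibrosis, for 1, 4 or 8 weeks. CCl4 was injected intraperitoneally in corn oil 2 times a week, at 1 mg/kg per the labels and 1 ml/kg per the study's methods. No vehicle group was analysed here, so CCl4 and corn oil cannot be told apart, and the 8-week mice were older than the 1-week mice at the end. The same untreated pair served for every duration, so not every difference from untreated can be matched for age. Each group had 2 cards. Whether a pair stands for separate mice is not in the labels, so standard errors and p-values measure the spread between cards, which may be technical. The series' design text names 4, 3 and 2 mice for the treated groups.

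MicroRNAs are short RNAs cut from hairpin precursors that guide Argonaute proteins to partly complementary messenger RNAs and lower their output. Pairing at the seed, the bases next to the 5′ end, does most to choose the targets. In the liver, hepatocytes carry very large amounts of miR-122, and CCl4 injury brings in leukocytes and activates stellate cells, each with its own characteristic microRNAs. No cell type or function of miR-680 or miR-685 is taken as known here.

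The mature sequence of miR-680 is shown because it defines what the assay reads and which seed it carries. It was taken from RefSeq (GRCm38.p6), 5′ to 3′, with the seed (bases 2 to 8) in capitals.
mmu-miR-680: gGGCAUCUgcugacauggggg
This microRNA is 21 nt long with a GC content of 66.7%, against a median of 52.2% over 1674 distinct mouse mature sequences in the same table, of which 8.00% were richer in GC. No other mature microRNA name in the table shared its seed. The same table held 0 mature entries under the name of miR-685. Its sequence and seed are therefore not shown, and what its assay reads could not be checked there.

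MiR-680 has 3 annotated gene copies with the same mature sequence, so the assay cannot tell which of them a signal came from. Their hairpins are shown to let the copies be compared around the mature stretch, which is in capitals.
Mir680-1: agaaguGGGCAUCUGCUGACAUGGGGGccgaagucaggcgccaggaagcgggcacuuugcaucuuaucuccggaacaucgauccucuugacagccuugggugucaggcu
Mir680-2: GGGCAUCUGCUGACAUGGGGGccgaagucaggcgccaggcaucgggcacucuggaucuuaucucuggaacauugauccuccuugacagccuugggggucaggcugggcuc
Mir680-3: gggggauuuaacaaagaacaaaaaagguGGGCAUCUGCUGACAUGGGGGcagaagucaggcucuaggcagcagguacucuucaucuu
Mir680-1 lies at chr6:129691535-129691643 on the plus strand, between the pseudogene Gm7309 and Klri1, a killer cell lectin-like receptor gene. Mir680-2 lies at chrX:144297790-144297899 on the plus strand, between the pseudogene Gm15066 and the lncRNA gene Gm33235. Mir680-3 lies at chr12:35194811-35194897 on the minus strand, between Snx13, which encodes a sorting nexin, and the snRNA gene Gm26071. None of the 3 loci overlaps another annotated gene, so all of them are intergenic in this annotation.

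Aligned from the first mature base, Mir680-1 and Mir680-2 matched at 81 of 103 positions (78.6%), with the first 39 bases identical. Mir680-3 matched each of the others at 51 of 59 positions (86.4%), with the first 22 bases identical. The mature stretch starts at base 7 of Mir680-1, at base 1 of Mir680-2 and at base 29 of Mir680-3. Folded with RNAfold, the hairpins had minimum free energies of -34.5, -34.3 and -23.1 kcal/mol, or -0.317, -0.312 and -0.266 kcal/mol per base. The median over 1005 mouse hairpins was -0.406 kcal/mol per base, and 16.2%, 14.6% and 5.37% of them folded less stably per base than Mir680-1, Mir680-2 and Mir680-3. The mature bases were paired at 85.7% in Mir680-1, 66.7% in Mir680-2 and 81.0% in Mir680-3, against a median of 81.0% over annotated arms, so all 3 precursors fold weakly for their length while the mature bases of Mir680-1 and Mir680-3 are about as paired as usual.

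Between 193 and 235 assays gave a Ct on a card, and the mean Ct of the 149 reference assays, those below Ct 35 on every card, ran from 27.5 to 29.8. The 4-week replicate 2 card was the faintest by both measures. A lower Ct means more template, with 1 cycle equal to 2-fold if amplification is perfect, which was not measured. Levels below are centred log2 values, the card's mean reference Ct minus the Ct of the assay, and a difference of 1 is 2-fold. Their zero depends on each assay's own efficiency, so the levels of both assays are not set against each other. The hepatocyte microRNAs miR-122 and miR-192 had mean Ct values of 22.8 and 22.6, ranking 9 and 5 from the lowest Ct of the 166 assays tested, so the defining markers of the labelled tissue were present. In whole liver RNA, fewer cells of a type and less RNA per cell cannot be told apart.

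MiR-685 had raw Ct values, replicate 1 first, of 31.00 and 31.11 for the untreated pair, 32.02 and 32.22 for the 1-week pair, 27.44 and 29.08 for the 4-week pair, and 31.62 and 31.08 for the 8-week pair. The 4-week cards had the lowest Ct of this assay even before any correction for the card, although 1 of them was the faintest card. After centring, its levels were -2.65 and -3.12 (untreated), -3.25 and -3.62 (1-week pair), 0.81 and 0.69 (4-week pair), and -4.14 and -2.20 (8-week pair). The 4-week pair stood above the 6 other cards with a gap of 2.90, and those 6 lay between -4.14 and -2.20.

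**Figure D1:**
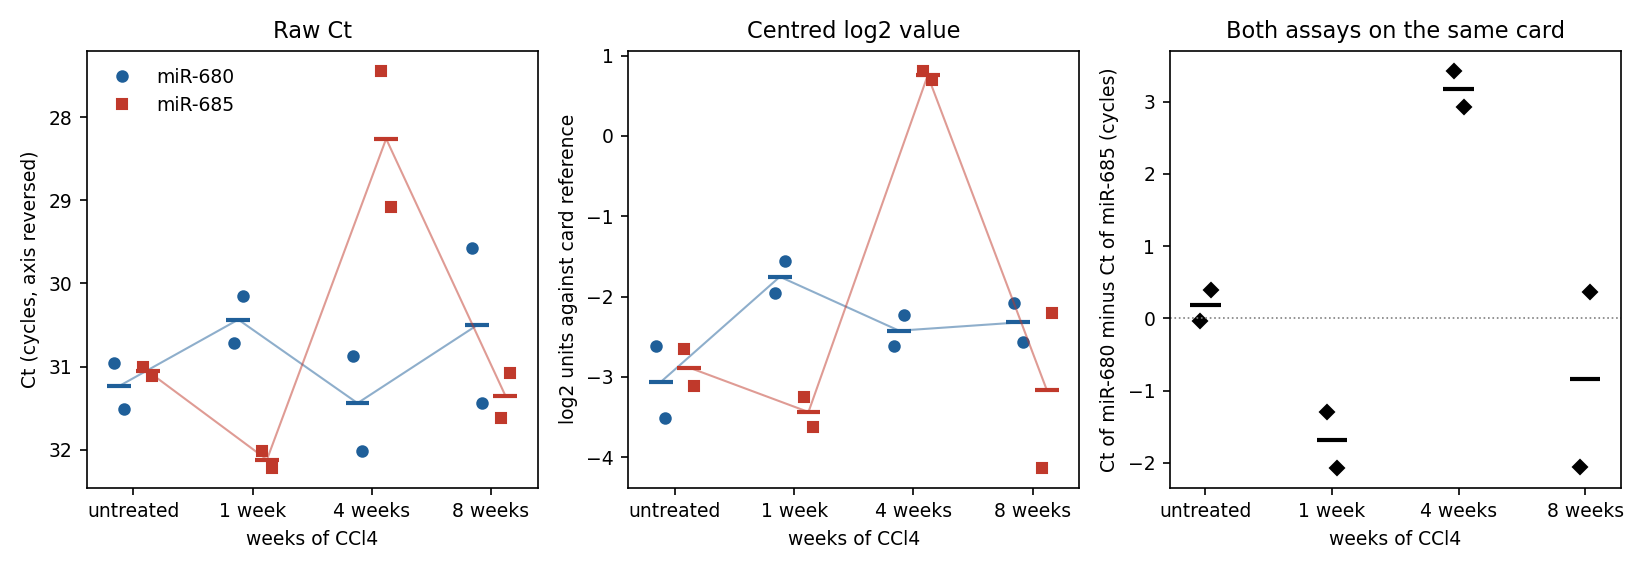
MiR-680 and miR-685 on each of the 8 cards, by group (horizontal axes), with points for cards and bars for group means. The vertical axes are, from left to right, raw Ct (reversed), centred log2 value, and Ct of miR-680 minus Ct of miR-685. In centred values, the 2 cards of miR-685 at 4 weeks sit at 0.81 and 0.69, above its 6 other cards. For miR-680 no group stands apart to that degree, and its 8 cards lie between -3.52 and -1.55.

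The group means of miR-685 were -2.89 ± 0.33 (SD, n = 2) without CCl4, then -3.44 ± 0.26 after 1 week, 0.75 ± 0.085 after 4 weeks and -3.17 ± 1.37 after 8 weeks. In descending order the groups were 4 weeks, untreated, 8 weeks and 1 week. The 8-week cards overlapped both the untreated and the 1-week cards, and the latter pairs did not overlap.

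At 4 weeks, miR-685 was higher than in untreated liver by 3.64 log2 units (SE 0.58), or 12.5-fold. Its cards did not overlap those of the untreated group, as was also the case for 33.7% of the assays in this direction. Against 1 week the 4-week difference was 4.19 (SE 0.58), or 18.3-fold, without overlap, which held for 36.7% of the assays. Against 8 weeks it was higher again, since 8 weeks minus 4 weeks was -3.92 (SE 0.58) or 15.2-fold lower, with 20.5% of the assays lower without overlap. With 1 card left out, the difference of 8 weeks from 4 weeks ran from -4.89 to -2.96. Because these 3 contrasts share the 4-week cards, they are not separate observations of the high value.

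At 1 week miR-685 lay 0.55 below untreated on the log2 scale (a difference of -0.55, SE 0.58, a ratio of 0.682), with no overlap between cards. Of all tested assays, 40.4% were lower without overlap in this comparison, and the difference was smaller than its standard error. At 8 weeks the difference from untreated was -0.28 (SE 0.58), a ratio of 0.822, with overlapping cards, and that from 1 week was 0.27 (SE 0.58), also with overlap. The 8-week difference from untreated had no stable sign, being 0.69 without 8-week replicate 1, -1.25 without replicate 2, and 0.18 and 0.07 with 3 and with all 5 control RNAs of the cards as reference. Nor had that from 1 week, which ran from -0.70 to 1.24 with 1 card left out. The 8-week cards of miR-685 lay 1.94 apart, and 2.41% of the tested assays had a larger gap within that pair, whereas its 4-week cards lay 0.12 apart and 86.7% had a larger gap.

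MiR-680 followed another course. Its raw Ct was 30.96 and 31.51 for the untreated pair, 30.72 and 30.15 for the 1-week pair, 30.87 and 32.01 for the 4-week pair, and 29.57 and 31.44 for the 8-week pair. The centred values were -2.61 and -3.52 (untreated), -1.95 and -1.55 (1-week pair), -2.62 and -2.24 (4-week pair), and -2.09 and -2.56 (8-week pair). Its highest cards were those at 1 week, but by a gap of 0.13 over the next card, and its lowest was untreated replicate 2.

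The group means of miR-680 were -3.07 ± 0.64 (SD, n = 2) without CCl4, then -1.75 ± 0.28 after 1 week, -2.43 ± 0.27 after 4 weeks and -2.32 ± 0.34 after 8 weeks. From highest to lowest they ran 1 week, 8 weeks, 4 weeks and untreated. Cards at 1 and 8 weeks did not overlap, those at 8 and 4 weeks did, and those at 4 weeks overlapped the untreated ones.

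Relative to untreated liver, miR-680 was higher at 1 week by 1.31 (SE 0.39), or 2.48-fold, without overlap of the cards, as were 36.1% of the tested assays. At 4 weeks the difference was 0.64 (SE 0.39), or 1.56-fold, with overlap, and at 8 weeks it was 0.74 (SE 0.39), or 1.67-fold, without overlap. Of all assays, 28.3% were higher without overlap at 8 weeks. The values depended on the untreated cards, with differences of 0.86, 0.19 and 0.29 at 1, 4 and 8 weeks without untreated replicate 2 and of 1.76, 1.09 and 1.19 without untreated replicate 1.

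Compared with 1 week, miR-680 was at a difference of -0.67 at 4 weeks and -0.57 at 8 weeks (SE 0.39 for both), in both cases without overlap. Of all tested assays, 38% were lower without overlap at 4 weeks and 36.1% at 8 weeks. Between 4 and 8 weeks it differed by 0.10 (SE 0.39), with overlapping cards, and this sign turned with control RNAs as reference (-0.080 with 3 and -0.085 with 5). With the mean of 3 control RNAs (U6, snoRNA135 and snoRNA202) as reference, the 4-week and 8-week differences from 1 week became 0.21 and 0.13, and with all 5 control RNAs of the cards (U87 and Y1 added) they were -0.63 and -0.71, so the choice of control RNAs set their direction. The untreated-to-4-week difference likewise turned to -0.21 without any normalization.

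The difference between both assays on 1 card needs no reference. The Ct of miR-680 minus that of miR-685 was -0.04 and 0.40 for the untreated pair, -1.30 and -2.07 for the 1-week pair, 3.43 and 2.93 for the 4-week pair, and -2.05 and 0.36 for the 8-week pair. The 4-week cards were the highest and the others lay between -2.07 and 0.40. Group means were 0.18 ± 0.31 (SD, n = 2), -1.69 ± 0.54, 3.18 ± 0.35 and -0.85 ± 1.70. Thus miR-685 stood high relative to miR-680 at 4 weeks, and the 8-week cards, at -2.05 and 0.36, lay within the range of the untreated and 1-week cards. Over the 8 cards the centred values of miR-680 and miR-685 had a Pearson r of -0.17 and a Spearman rho of -0.60, a description over cards that share 4 groups and 1 centring.

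Both assays were picked for a strong dependence on time, and the values that led to the choice differ in size. The range of the 4 group means was 4.19 for miR-685, which ranked 4 of the 166 assays, and 1.31 for miR-680, which ranked 101 of 166, against a median of 1.52, so the label of strong time dependence goes against the values of miR-680. Within groups, the pooled SD was 0.72 for miR-685 and 0.41 for miR-680, with a median of 0.39 over all tested assays. Both assays had a higher mean Ct than most tested assays, which ranks no amounts because amplification efficiency was not measured. MiR-685 had a mean Ct of 30.7 with 105 tested assays below it, and miR-680 a mean Ct of 30.9 with 114 below it. The replicate gaps of miR-680 were 0.90 for the untreated pair and 0.38 to 0.47 for the treated pairs, and the untreated gap was exceeded by 16.9% of the assays.

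Among all 166 assays, miR-685 had the largest positive difference at 4 weeks against untreated, or the second with quantile normalization. Next came miR-450a-5p at 3.14, miR-409-3p at 3.11, miR-34b-3p, a p53 target, at 2.89 and miR-223, a myeloid microRNA, at 2.77. It also led the assays higher at 4 weeks than at 1 week, where miR-328 followed at 3.53, miR-324-5p at 3.42 and let-7c at 3.30. From 4 to 8 weeks it was the lowest by a wide margin, at -3.92 against -1.55 for miR-223, -1.36 for miR-181a and -1.34 for miR-34b-3p. Both 4-week cards lay above all 6 other cards in 17 assays, or 10.2%, and miR-685 had the widest such gap at 2.90, with 0.65 for miR-142-3p and 0.62 for miR-324-5p behind it. These positions restate the choice of the assay and no test is attached to them.

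**Figure D2:**
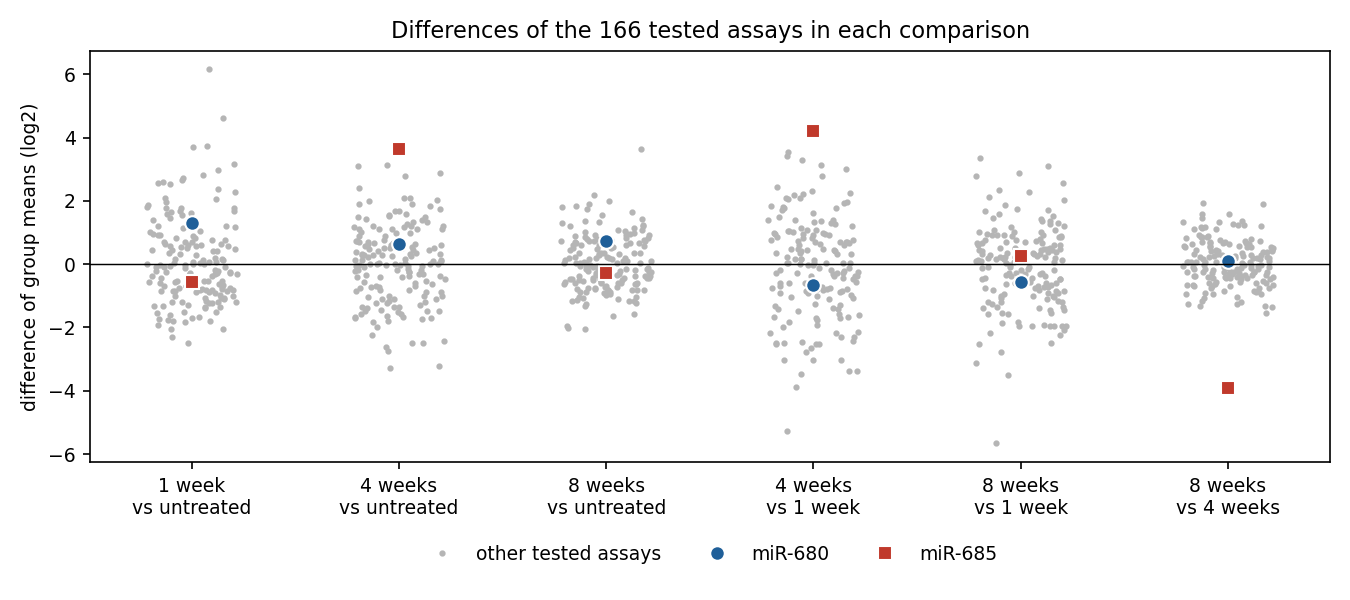
Difference of group means in centred log2 units (vertical axis) for every tested assay in each of 6 comparisons (horizontal axis), with grey points for the other assays, spread sideways for legibility, and marked points for miR-680 and miR-685. MiR-685 is at the edge of the assays in all 3 comparisons with the 4-week cards (3.64, 4.19 and -3.92) and amid them in the other 3, where miR-680 also lies.

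MiR-680 lay amid the assays in all 6 comparisons. Its difference of 1.31 at 1 week ranked 32 from the top, that at 4 weeks ranked 49 and that at 8 weeks ranked 36. Both of its 1-week cards were above all 6 others, as in 38 assays or 22.9%, and its gap of 0.13 ranked 35 among those 38.

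The assays whose centred values over the 8 cards ran most like miR-685 were, by Pearson r, miR-181a (0.90), miR-339-5p (0.84), miR-142-3p (0.81), miR-652 (0.80) and miR-532-3p (0.78). MiR-181a is known from lymphocyte development and miR-142-3p is restricted to blood cells. All of them were smaller in size than miR-685 at 4 weeks, with differences from untreated of 1.54 for miR-181a, 1.89 for miR-339-5p, 2.00 for miR-142-3p, 1.10 for miR-652 and 1.34 for miR-532-3p. At 1 week the same assays were at -0.69, -0.21, -0.20, -0.69 and 0.12, so none was far above untreated there either. The most opposed to miR-685 were miR-192 (r = -0.86), abundant in hepatocytes, miR-126-5p (-0.85), from an endothelial gene, and miR-203 (-0.85), known from epithelia, which at 4 weeks lay at -2.76, -1.65 and -2.49 relative to untreated.

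The closest to miR-680 were miR-434-3p (0.86), miR-184 (0.83), miR-193b (0.82), miR-106b (0.82) and miR-142-5p (0.81). Their differences from untreated at 1 week were 2.09, 2.82, 2.53, 0.58 and 1.63, against 0.40, 1.90, 1.10, 0.58 and 1.60 at 4 weeks, so none was higher at 4 weeks than at 1 week. The most opposed to miR-680 were miR-30d (r = -0.80), miR-15a (-0.78) and miR-98 (-0.77), the last a member of the let-7 family. These are the top and bottom of 165 correlations over 4 groups of 2 cards. An r of at least 0.5 was found for 32 of the other 165 assays with miR-680 and 42 with miR-685, and an r of -0.5 or lower for 25 and 42.

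**Figure D3:**
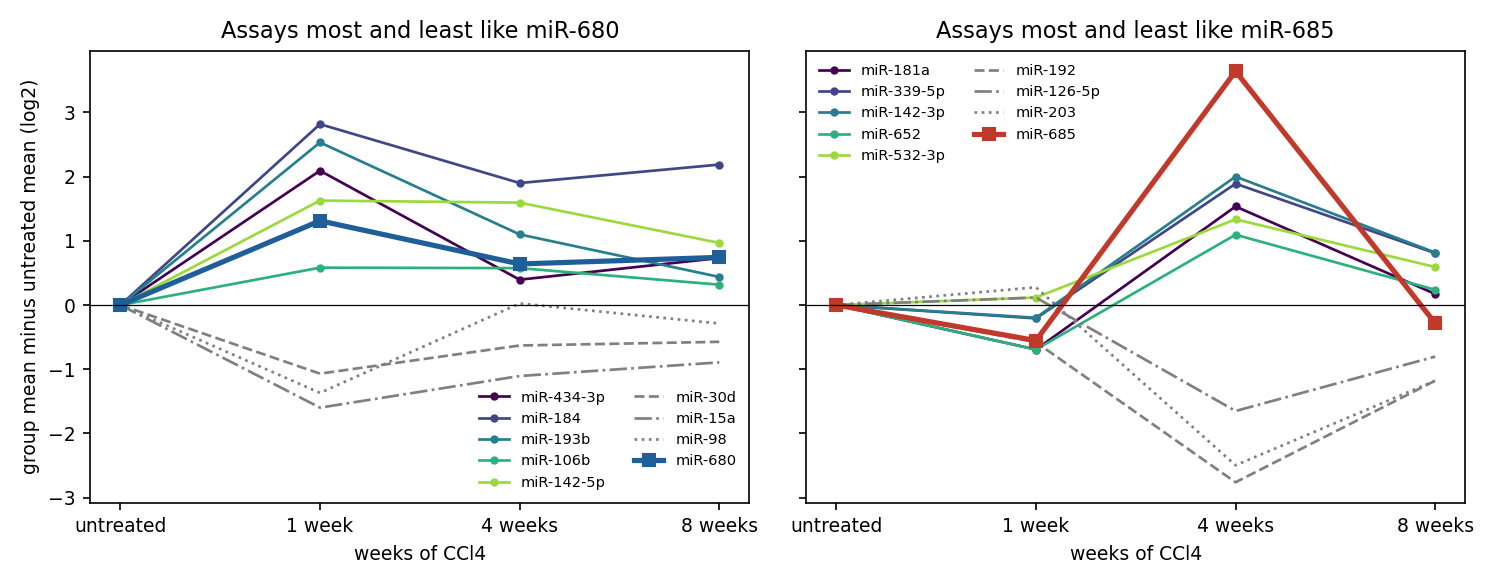
Difference from untreated in centred log2 units (vertical axis) at 1, 4 and 8 weeks of CCl4 (horizontal axis) for each member (thick line), the 5 assays most like it over the 8 cards (coloured lines) and the 3 least like it (grey lines). MiR-685 at 3.64 exceeds the 1.10 to 2.00 of its 5 assays at 4 weeks, and miR-680 at 1.31 lies within the 0.58 to 2.82 of its own 5 at 1 week.

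The assays most like either member and the complete numbered neighbours below are 14 assays. Sequences are given for the 4 whose card name matched a RefSeq mature name exactly. Their seeds differ from that of miR-680 (GGCAUCU), which was already settled because no other name in the table shares it. Seeds are in capitals.
mmu-miR-434-3p: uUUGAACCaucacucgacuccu
mmu-miR-339-5p: uCCCUGUCcuccaggagcucacg
mmu-miR-532-3p: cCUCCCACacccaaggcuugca
mmu-miR-671-3p: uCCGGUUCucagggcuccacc
All 4 seeds were different from one another. MiR-434-3p, the assay most like miR-680, comes from an imprinted cluster on mouse chromosome 12.

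Other assays numbered 650 to 750 were taken as a comparison list for both members. MicroRNA numbers follow the order of naming, so neighbours in number need share neither function nor locus. The list held 32 assays, of which 5 gave a Ct on all 8 cards, 10 on 1 to 7 cards and 17 on none. Over all 381 assays the same classes held 168, 111 and 102. MiR-680 and miR-685 were chosen with their values on all 8 cards in view, so their full sets of values do not set them apart.

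The 5 complete neighbours were tested with limma within the fit to all 166 assays. At 4 weeks against 1 week, 3 of 5 were higher at an adjusted p of 0.05, against 21.7% of all assays, and none was lower, against 25.3%. MiR-744, which lies in an intron of Map2k4, was at -5.19 and -3.55 on the 1-week cards and at -1.55 and -1.17 on the 4-week cards, and it rose by 3.02 (SE 0.62, limma adjusted p = 0.00903). MiR-652 was at -2.13 and -1.37 at 1 week and at -0.35 and 0.41 at 4 weeks, and rose by 1.79 (SE 0.42, limma adjusted p = 0.0147). MiR-667 rose by 1.92 (SE 0.46, limma adjusted p = 0.0148). MiR-676 at 1.08 (limma adjusted p = 0.0781) and miR-671-3p at 1.26 (limma adjusted p = 0.107) did not pass. For miR-685 the same contrast was 4.19, and for miR-680 it was -0.67, below all 5. The median of the 5 was 1.79 against -0.03 over all assays.

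At 8 weeks against 1 week 3 of the 5 were also higher, against 10.2% of all assays, namely miR-744 at 3.09 (limma adjusted p = 0.0157), miR-676 at 1.73 (limma adjusted p = 0.0332) and miR-667 at 1.68 (limma adjusted p = 0.0332). In that contrast miR-685 was at 0.27.

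Without 4-week replicate 2 none of the 5 passed at 4 weeks against 1 week, and without 1-week replicate 1 only 1 did, while the share of all assays called in either direction went from 47% to 18.1% and 24.7%. The differences themselves stayed between 2.20 and 3.84 for miR-744, 1.41 and 2.17 for miR-652 and 1.50 and 2.34 for miR-667 with any 1 card left out. Against untreated, miR-744 fell by 2.31 at 1 week (SE 0.62, limma adjusted p = 0.0271), the 1 call among the 5, with 14.5% of all assays lower. That call was lost without untreated replicate 1 and without 1-week replicate 1, where 9.04% and 16.9% of all assays were called in either direction. It was also lost with all 5 control RNAs as reference and without normalization, where 23.5% and 3.01% of all assays were called. At 4 weeks against untreated limma called 3 of the 5 with 3 and with all 5 control RNAs, and 33.7% and 29.5% of all assays. With the replicate number as a block it called 2 (29.5% of all assays). With the main scaling and no block, limma called 0 of the 5 at 4 and 8 weeks against untreated. There it called 30.1% and 3.01% of all assays in either direction. With an adjusted p of 0.10 it called 2 at 4 weeks, where 40.4% of all assays were called, miR-652 at 1.10 (limma adjusted p = 0.0835) and miR-667 at 1.17 (limma adjusted p = 0.0895). Their differences at 4 weeks ran down to 0.09 for miR-676 (limma adjusted p = 0.922), with a median of 1.10, against 3.64 for miR-685 and 0.64 for miR-680. All 5 were positive at 4 and at 8 weeks, as were 87 and 82 of the 166 assays. With 1 card left out the sign was not stable for miR-676 at 4 weeks (-0.24 to 0.41), nor for miR-671-3p (-0.46 to 1.03) and miR-652 (-0.12 to 0.59) at 8 weeks.

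**Figure D4:**
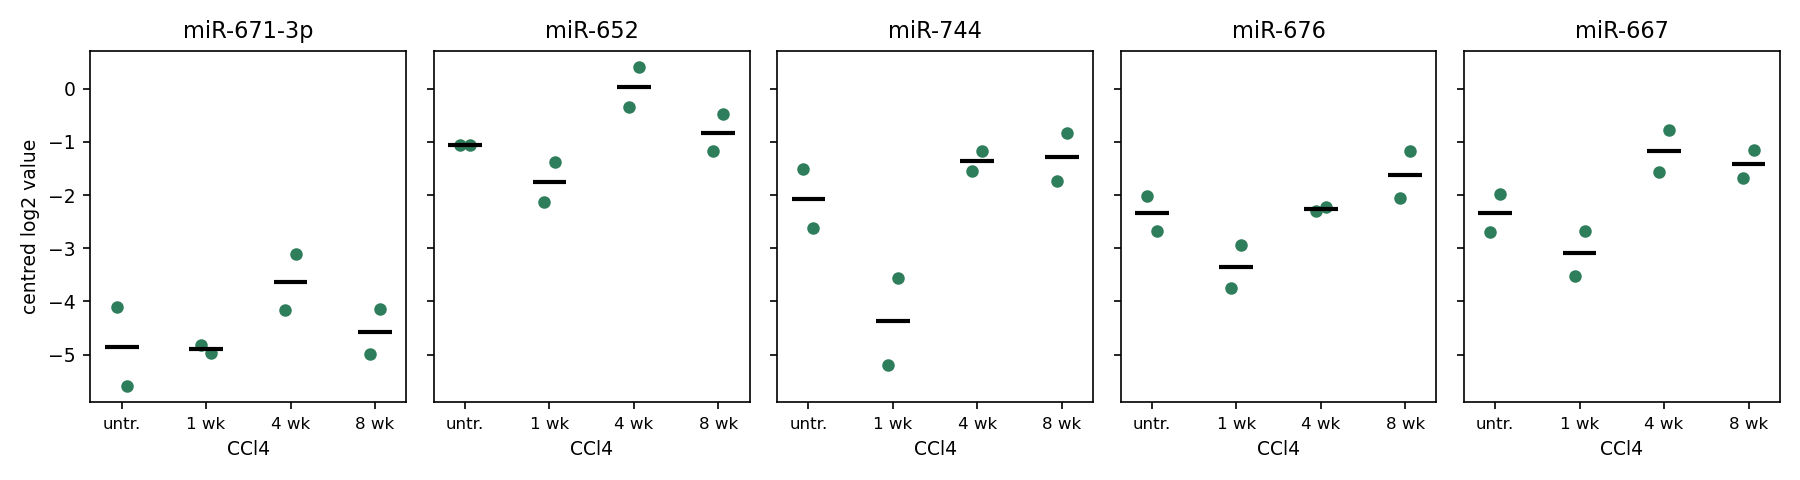
Centred log2 value (vertical axis, shared by the panels) of the 5 numbered neighbours measured on all 8 cards, by group (horizontal axis), with points for cards and bars for group means. MiR-744 is lowest at 1 week (-5.19 and -3.55), and in no panel do the 4-week cards stand as far above the rest as those of miR-685.

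Some microRNAs that mark cell types also differed from untreated liver at 4 weeks, where miR-685 was high, and others did not. The summed level of 5 leukocyte microRNAs (miR-223, miR-142-3p, miR-142-5p, miR-150 and miR-155) spanned 3.61 to 3.98 in untreated liver, 5.58 to 5.85 on the 1-week cards, 6.04 to 6.31 on the 4-week cards and 4.67 to 4.87 on the 8-week cards. This sum follows its strongest assay, miR-223, and was already high at 1 week, where miR-685 was at its lowest group mean and miR-680 at its highest. Within the list, miR-142-3p ran otherwise, at -0.20 at 1 week against untreated, lower without overlap, and it rose by 2.20 from 1 to 4 weeks (limma adjusted p = 0.0034). In that contrast miR-150 fell by 1.84 (limma adjusted p = 0.0061), and miR-155 at -0.37, miR-142-5p at -0.03 and miR-223 at 0.71 did not pass, so the list had no shared course from 1 to 4 weeks, where miR-685 was higher by 4.19. At 4 weeks, 4 of the 5 passed the limma test upward against untreated, as did 13.3% of all assays, and the lymphocyte microRNA miR-150 was at 0.13. For 4 stellate cell and fibroblast microRNAs (miR-199a-3p, miR-214, miR-143 and miR-145) the sum spanned 3.78 to 4.22 on the 4-week cards and 3.38 to 3.69 on the others, highest in the group in which miR-685 was highest. The strongest assay in this sum was miR-145, at 2.67 and 3.51 on the 4-week cards and 2.84 and 2.69 in untreated liver. Of the 4 microRNAs in this list, 2 passed upward at 4 weeks against untreated, miR-199a-3p at 1.10 and miR-214 at 1.69. The mean difference of the 4 turned to -0.15 without normalization. MiR-143 was at -0.34 there, lower without overlap, and miR-145 at 0.33, with overlap, and neither passed.

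The summed level of 5 hepatocyte microRNAs (miR-122, miR-192, miR-194, miR-802 and miR-148a) spanned 7.81 to 7.86 in untreated liver, 7.04 to 7.08 on the 1-week cards, 6.28 to 6.45 on the 4-week cards and 7.08 to 7.31 on the 8-week cards, lowest where miR-685 was highest. At 4 weeks 4 of the 5 passed downward against untreated, with 16.9% of all assays doing so, while miR-122 was at -0.23. Unlike the sum, miR-122 was lowest at 1 week, with a difference of -1.20 from untreated (limma adjusted p = 0.0949), and it was 0.97 higher at 4 weeks than at 1 week without overlap (limma adjusted p = 0.131). The endothelial sum (miR-126-3p and miR-126-5p) was also lowest at 4 weeks, at 5.95 to 6.75 against 6.84 to 7.67 on the 8-week cards, 7.91 to 8.41 in untreated liver and 8.73 to 8.80 on the 1-week cards. The sum of the erythroid microRNAs miR-451 and miR-486 had overlapping ranges in all groups, from 0.72 to 1.24. Taken alone, miR-451 was at -0.86 at 1 week against untreated (limma adjusted p = 0.129), where its cards were lower without overlap, and it rose by 1.40 from 1 to 4 weeks (limma adjusted p = 0.0242) and by 1.60 from 1 to 8 weeks (limma adjusted p = 0.0320). From 1 to 4 weeks miR-486 was at -0.36, lower without overlap (limma adjusted p = 0.352). All of these markers had a Ct on every card. Their part in the values of miR-685 and miR-680 was not tested.

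The 5 control RNAs on the cards also differed between groups. At 1 week against untreated, 1 of them was higher and 4 were lower without overlap of the cards, as were 36.1% and 40.4% of all assays, with a median difference of -1.28. U6 was the one that rose by 2.38 (limma adjusted p = 0.0080), with 18.1% of all assays higher, and it read 13.0 and 12.4 on those cards against 9.93 and 10.8 in untreated liver. U87 fell by 1.92 (limma adjusted p = 0.0051) and snoRNA202 fell by 1.39 (limma adjusted p = 0.0139). With all 5 as reference, miR-685 was at 4.18 at 4 weeks against untreated and miR-680 at 1.81 at 1 week, and with U6, snoRNA135 and snoRNA202 alone the values were 4.28 and 1.07. Over all scalings tried, the 4-week difference of miR-685 ran from 2.80 to 4.28 and the 1-week difference of miR-680 from 0.80 to 1.81, so both kept their direction. Leaving out any 1 card gave 3.41 to 3.87 and 0.86 to 1.76.

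**Figure D5:**
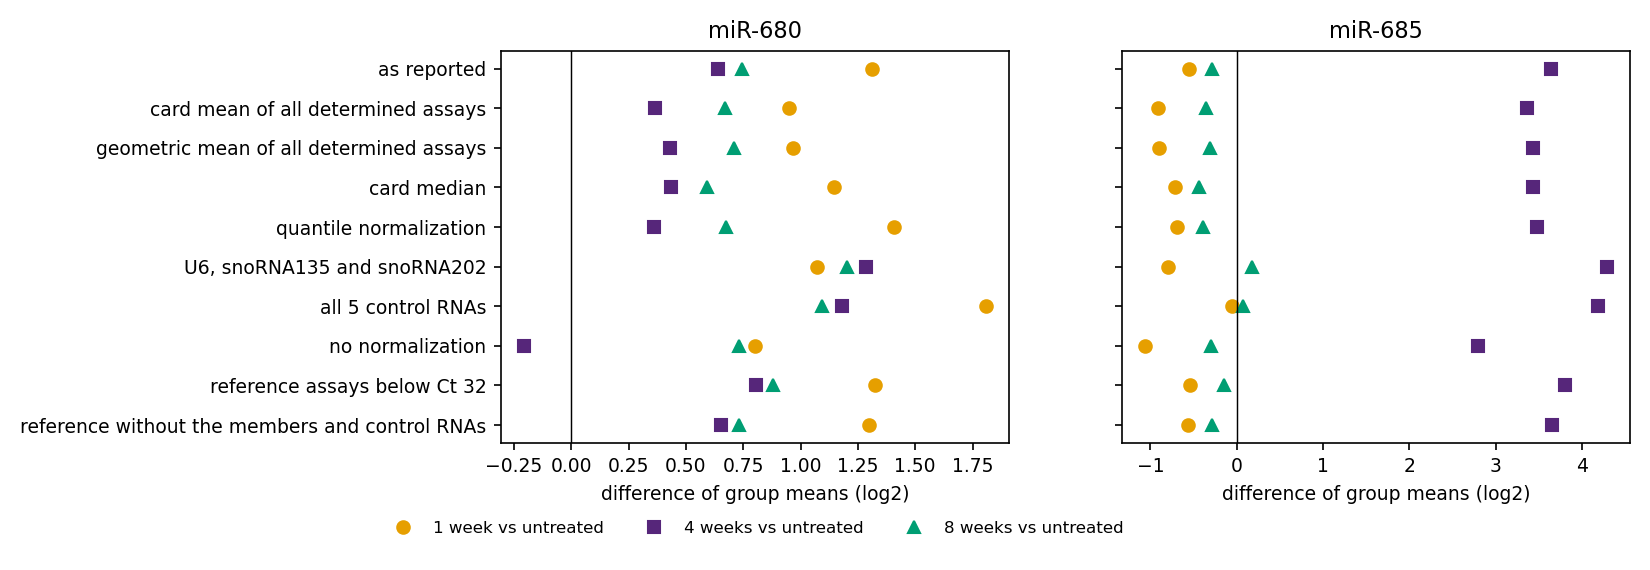
Difference from untreated in log2 units (horizontal axis, with its own range in each panel) at 1, 4 and 8 weeks for miR-680 and miR-685, with 1 line for each way of scaling the cards. The 4-week values of miR-685 stay between 2.80 and 4.28, whereas those of miR-680 run from -0.21 without normalization to 1.28 with U6, snoRNA135 and snoRNA202 as reference.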

How the data were processed

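Total liver RNA was reverse transcribed without pre-amplification and run on the rodent A cards (version 2.0), 1 card per sample and 8 cards in 4 groups taken from the labels. The authors deposited Ct values per card, a score counted in PCR cycles, without normalization and not pooled, with undetermined assays blank. A second deposited table holds the authors' fold changes against untreated, made with geometric mean normalization, and was not used.

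To centre a card, the Ct of an assay was subtracted from the card's mean over the 149 reference assays, all below Ct 35 throughout, which gives log2 units. A fit was made to the 166 assays with a Ct on all 8 cards and a mean Ct below 35, in 1 model with limma 3.58.1 in R 4.3.3 (lmFit, eBayes), with Benjamini-Hochberg adjustment within each comparison at 0.05. The scripts were tested on simulated data. The fit gave standard errors for miR-680 and miR-685 and tests for the numbered neighbours. Summed marker levels are the log2 of summed linear values.

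The members, lists and tests were chosen with earlier results of these data known. Assays named besides the members were the next largest differences, the 5 highest and 3 lowest Pearson correlations with each member, and the lists. Hairpins were folded with RNAfold 2.7.2. With 2 cards per group, precision is limited by their number, and no counts exist. The alternatives are described in the closing section.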

Additional observations from a re-analysis of the deposited data

Results flagged for a closer look

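MiR-685 differed by 4.19 log2 units between 4 weeks and 1 week of CCl4, and stands here because both 4-week cards lay above the untreated mean and both 1-week cards below it. The difference between the times was not tested, since the assay was chosen on these cards. The 1-week side of this contrast is small, at -0.55 from untreated with an SE of 0.58, and the 4-week side is 3.64.

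Among the numbered neighbours, 3 assays had effects at 4 weeks and at 1 week that differed by limma, which tested the difference itself. They were miR-744 at 3.02 (adjusted p = 0.00903), miR-652 at 1.79 (adjusted p = 0.0147) and miR-667 at 1.92 (adjusted p = 0.0148), each higher at 4 weeks. Without 4-week replicate 2 none of the 3 passed, and with quantile normalization miR-744 and miR-652 passed and miR-667 did not. Of the neighbours in the fit, 1 was called in this contrast without normalization (17.5% of all assays). With undetermined values set to Ct 40 it was also 1 (11.5%). With any 1 card left out the differences of miR-744, miR-652 and miR-667 were at least 2.20, 1.41 and 1.50.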

How the results depend on the processing

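Directions of both members at 1 week against untreated, of miR-685 at 4 weeks against each group and of miR-680 at 8 weeks against untreated were kept under every scaling and with any card left out. With U6, snoRNA135 and snoRNA202 as reference, miR-680 was at 1.28 at 4 weeks and 1.20 at 8 weeks against untreated, and its differences from 1 week reversed to 0.21 at 4 weeks and 0.13 at 8 weeks; miR-685 at 4 weeks against 1 week was 5.08. The calls among the 5 neighbours were then 3 at 4 weeks against untreated and 5 at 4 weeks against 1 week, where 33.7% and 55.4% of all assays were called, and 3 and 2 of the 5 assays most like miR-680 and miR-685 were shared. With all 5 control RNAs, chosen after seeing the data, miR-680 was at 1.81 at 1 week and 1.18 at 4 weeks against untreated, calls were 0 at 1 week and 3 at 4 weeks against untreated (23.5% and 29.5% of all assays), and the erythroid mean at 1 week reversed to 0.157. Without normalization, miR-680 was at 0.80 at 1 week, reversed to -0.21 at 4 weeks, at -0.07 for 8 weeks against 1 week and at 0.94 for 8 weeks against 4 weeks, and miR-685 was at 2.80 at 4 weeks against untreated and -3.09 for 8 weeks against 4 weeks. The calls were then 0 at 1 week against untreated and 1 at 4 weeks against 1 week (3.01% and 17.5% of all assays), and 3 of the 5 most alike assays were shared for each member. The card mean of all determined assays left 3 of 5 shared for miR-680, and Spearman's rho left 2 for each member. Undetermined values set to Ct 40 raised the neighbours in the fit from 5 to 15, with 1 call at 4 weeks against 1 week (11.5% of all assays). An adjusted p of 0.10 gave 2 calls at 4 weeks against untreated (40.4% of all assays). The cause of these shifts was not tested. The median of all assays lay at -0.45 at 1 week with the card mean, against -0.09 as reported, and at 0.67 at 4 weeks with the 3 control RNAs, against 0.03, and an additive scaling keeps a member's distance from that median by construction. By rank, miR-685 was first at 4 weeks against untreated under the additive scalings and second with quantile normalization.

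The mean of the stellate cell and fibroblast list at 1 week reversed to -0.21 (card mean), -0.19 (geometric mean), -0.0125 (median), -0.084 (3 control RNAs) and -0.36 (none), and at 4 weeks to -0.15 without normalization. The replicate block left the member differences as they were and gave 2 calls among the neighbours at 4 weeks against untreated (29.5% of all assays). Same-numbered cards deviated together with r from -0.50 to 0.43 over pairs of groups, so the numbers were not taken to pair the cards. The crossed pairing, chosen after seeing the data, gave 2 calls at 1 week, 1 at 4 weeks against untreated and 5 at 4 weeks against 1 week (44.6%, 39.2% and 54.2% of all assays).

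With each card left out in turn, the differences of miR-680 from untreated ran from 0.86 to 1.76 (1 week), 0.19 to 1.09 (4 weeks) and 0.29 to 1.19 (8 weeks), from -0.87 to -0.47 and -0.81 to -0.33 at 4 and 8 weeks against 1 week, and from -0.14 to 0.34 for 8 weeks against 4 weeks. MiR-685 ran from -0.78 to -0.32, 3.41 to 3.87 and -1.25 to 0.69 against untreated, from 4.01 to 4.38 and -0.70 to 1.24 against 1 week, and from -4.89 to -2.96 for 8 weeks against 4 weeks. The neighbours' calls ran from 0 to 1 at 1 week and 0 to 3 at 4 weeks against 1 week, and the shared alike assays from 1 to 5 for miR-680 and 2 to 4 for miR-685. With a group left at 1 card, that card was assumed to vary like the others. The number of cards, 2 per group, limits the precision.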

Other observations

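Some neighbours in number gave a Ct on most cards and none on others. MiR-687, an assay with a number close to both members, had a Ct of 25.01 to 27.39 on 6 cards and none on 4-week replicate 2 and 8-week replicate 2. MiR-682 had a Ct of 31.61 to 34.01 on 5 cards and none on untreated replicate 1, 4-week replicate 2 and 8-week replicate 2. MiR-680 and miR-685 had a Ct on all of those cards. The plant assay on the cards, which should find no template in mouse RNA, gave a Ct on 0 of 8 cards.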
